A study of Mus musculus with 8 samples.

Results

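The 38 genes described here are immediate early and activation genes, which many cells transcribe within minutes of a signal. They were chosen by name, as rows of a gene count table of 27179 rows, and all 38 were found in it. They comprise the FOS and JUN subunits of AP-1, ATF3 and the small MAF factors, the EGR, NR4A and KLF transcription factors, MYC, the GADD45 proteins and CDKN1A, and genes of the IER family with Csrnp1 and Tsc22d3. Inhibitors of signalling complete the list, namely dual specificity phosphatases (DUSP) and regulators of G protein signalling (RGS). RNA was measured in CCR6+ group 3 innate lymphoid cells (ILC3s), tissue lymphocytes that make interleukin 22. The cells were sorted from the large intestine of C57BL/6 mice at steady state, with 1 library for each of 8 mice. Replicates 1 to 4 came from Zbtb46f/f mice, labelled wild type, which carry floxed Zbtb46 alleles (Zbtb46-sufficient). Replicates 5 to 8 came from mice labelled Zbtb46 KO, which carry the same floxed alleles and a Cre recombinase that deletes the floxed part of Zbtb46 (Zbtb46-deficient). The comparison asks how transcripts of CCR6+ ILC3s differ when Zbtb46, a zinc finger transcription factor, is deleted. Cre was present in the deficient mice alone, so its own effect and that of the deletion cannot be told apart. The Cre is driven by a lineage gene's promoter and is not limited to CCR6+ ILC3s.

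Values are CPM, each library's counts divided by its total, per 1e6, after scaling by edgeR's TMM factor, and folds are deficient over sufficient. Library totals ran from 25328231 to 33760743 counts, so that a count of 0 allows up to 0.0848 to 0.123 CPM (3 counts). Such limits cover counting error only, because reads amplified from few molecules, with no molecular identifiers, were counted. Zbtb46 itself had 7.95, 48.3, 88.0 and 26.3 CPM in the sufficient and 4.78, 0.527, 3.16 and 0.124 CPM in the deficient libraries, which did not overlap. Of the ILC3 markers, Il22 had 14886 to 25266 and 13440 to 18771 CPM by genotype, Il23r 1735 to 3299 and 757 to 2247 CPM, and Ccr6 72.1 to 155 and 73.7 to 336 CPM. Ltb did not overlap, at 132 ± 62.9 and 48.5 ± 9.72 CPM (log2 fold -1.44, unadjusted p 0.00853, adjusted p 0.772 in edgeR), and Thy1 overlapped at 205 ± 56.9 and 332 ± 87.0 CPM (log2 fold 0.70, unadjusted p 0.0401). On principal components of all tested genes, replicate 6 stood apart on the first and replicate 1 on the second. In bulk libraries, fewer cells that express a gene and less of its RNA per cell cannot be told apart.

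Immediate early genes need no new protein for their induction, because the factors that start their transcription, such as serum response factor and CREB, are already present and are activated by kinases. FOS and JUN proteins pair to form AP-1, which binds the DNA of later response genes, while DUSP phosphatases remove phosphate from MAP kinases and so end the signal. In lymphocytes these genes are known to respond to receptor and cytokine signals, and they are also known to respond to tissue digestion and cell sorting, whose part in the levels here was not tested.

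The promoters of Fos, Fosl2 and Mafk are shown because these were the tested members whose 4 deficient libraries all lay on one side of the 4 sufficient ones. Each sequence is the 250 bases before the RefSeq start of the gene in GRCm38.p6, on the plus strand, at chr12:85473640-85473889 for Fos, chr5:32136222-32136471 for Fosl2 and chr5:139791286-139791535 for Mafk. Capitals mark every match, on either strand, to 4 motifs. The TATA box was searched as TATAAA, and the core of a CREB site as TGACG. An AP-1 site was searched as TGANTCA, with any base at N. The EGR site, GCGNGGGCG, shared no base with a match to the others in these 3 windows.
Fos: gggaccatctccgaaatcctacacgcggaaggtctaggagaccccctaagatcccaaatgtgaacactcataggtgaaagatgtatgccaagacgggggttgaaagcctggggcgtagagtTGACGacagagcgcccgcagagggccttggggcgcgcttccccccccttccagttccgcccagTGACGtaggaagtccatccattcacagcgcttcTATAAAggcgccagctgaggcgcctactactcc
Fosl2: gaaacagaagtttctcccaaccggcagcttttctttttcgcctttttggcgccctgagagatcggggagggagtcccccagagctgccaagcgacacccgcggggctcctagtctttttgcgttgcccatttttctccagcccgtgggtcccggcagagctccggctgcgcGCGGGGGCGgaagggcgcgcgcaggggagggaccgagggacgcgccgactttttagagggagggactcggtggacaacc
Mafk: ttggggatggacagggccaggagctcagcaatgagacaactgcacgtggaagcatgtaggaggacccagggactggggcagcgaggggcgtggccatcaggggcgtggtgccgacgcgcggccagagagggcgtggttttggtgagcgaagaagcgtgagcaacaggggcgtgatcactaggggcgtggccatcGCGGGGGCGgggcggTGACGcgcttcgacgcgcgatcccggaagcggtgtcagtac
The Fos window held 2 CREB cores and 1 TATA box, the Fosl2 window 1 EGR site, and the Mafk window 1 EGR site and 1 CREB core.

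RefSeq promoter windows were matched for 30 of the 38 members, and the first window of each gene was compared with the first windows of 27025 genes. Fosl1, Egr1, Egr3, Klf10, Dusp4, Rgs1, Ier2 and Myc had none in the table used. The CREB core TGACG was present in 14 of 30 member windows (46.7%) and in 17.9% of all windows. Nr4a1, Nr4a2 and Nr4a3 each held 4 copies of it. The EGR sequence GCGNGGGCG was present in 10 of 30 member windows (33.3%) and in 4.65% of all, while TATAAA was present in 13.3% and 13.0%. TGANTCA was found in 0 of the 30 first windows and in 6.87% of all. A CArG box, bound by serum response factor, was found in 1 of 30, that of Dusp5, and in 1.40% of all. Some genes have further RefSeq windows, of which 1 of Csrnp1 held 2 matches to TGANTCA and 4 of Egr2 each held a CArG box. Sites outside these windows of 250 bases were not searched, so a window without a match does not mean a gene without the site. Member windows had a median GC content of 64.2% against 52.0% for all windows, and both the CREB core and the EGR sequence contain CG. The part of GC content in these shares was not tested.

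Transcripts of most of these genes were present in ILC3s of both genotypes. Between 30 and 35 of the 38 members had at least 1 count in a given library, and 30 passed edgeR's filter on low counts. The 8 that did not pass were Fosl1, Egr2, Egr3, Nr4a3, Klf2, Dusp2, Dusp4 and Myc. Per kilobase of exon, Rgs1 was the most abundant member at 680 CPM, at percentile 99.1 of the tested genes with a known length. Next in CPM per kilobase came Rgs2 at 399, Junb at 209, Fos at 171, Cdkn1a at 90.2 and Fosl2 at 87.3. At the low end of the tested members, Klf10 had 4.15 and Dusp5 1.56 CPM per kilobase. Of the 30 tested members, 9 lay at or above percentile 90 and 18 at or above percentile 80 on this scale.

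**Figure D1:**
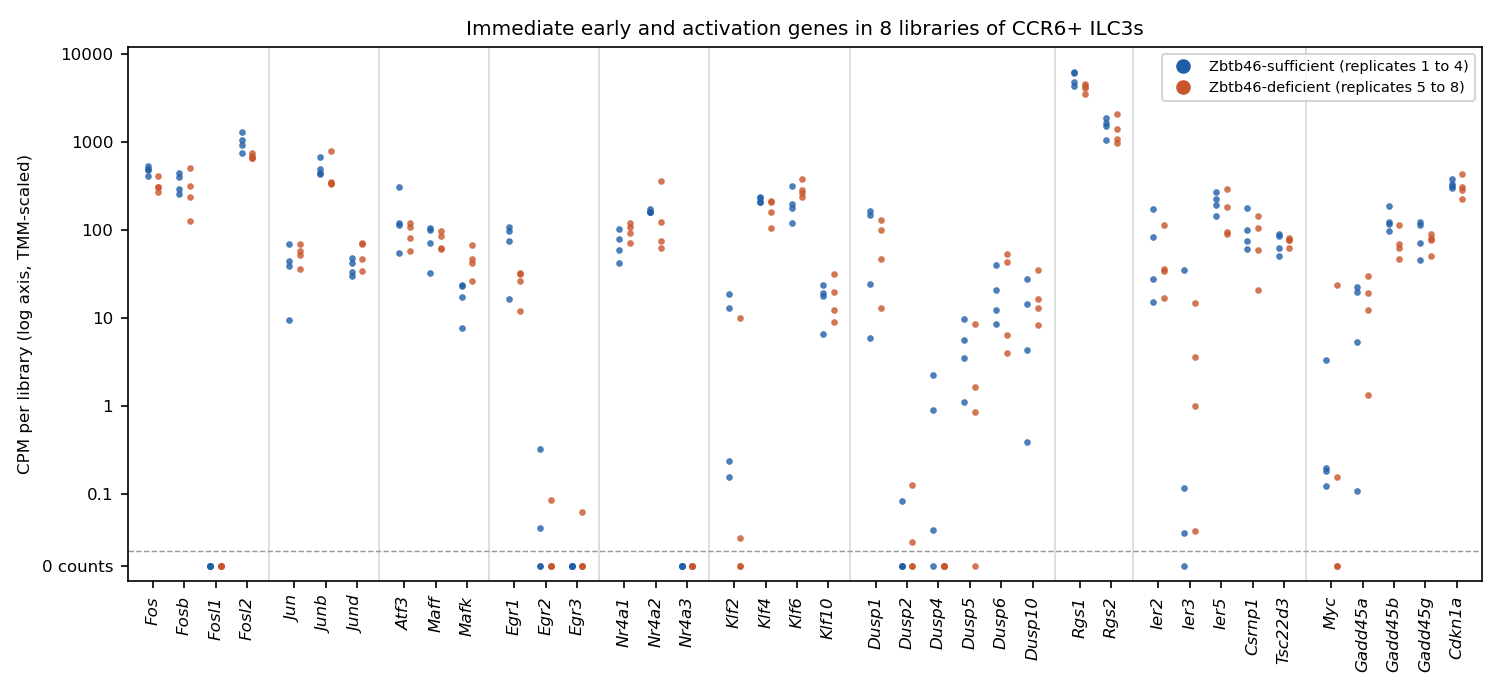
CPM of each of the 38 members (log axis) in the 4 sufficient (blue) and 4 deficient (orange) libraries, ordered by role, with libraries at 0 counts on a separate line at the bottom. Rgs1 and Rgs2 are the most abundant in CPM, Fosl1 and Nr4a3 are at 0 counts throughout, and Ier3, Klf2, Dusp1 and Myc spread widely within a genotype.

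No member passed the threshold of an adjusted p under 0.05 in edgeR's quasi-likelihood test with Benjamini-Hochberg adjustment over 8878 genes, where 0 genes did (0% of those tested). All 30 tested members had an adjusted p of 1.00. DESeq2, which called 3.52% of the genes it gave an adjusted p, and limma-voom called 0 members too. An unadjusted p under 0.05 was reached by 3 of the 30 (10%), Fos, Fosl2 and Egr1, all with lower values in deficient ILC3s, against 4.10% of all tested genes in either direction and 2.00% in the lower direction. The groups did not overlap in 3 of 30 (10%), against 4.36% of all tested genes. These 3 were Fos and Fosl2, lower in deficient ILC3s as were 2.10% of all tested genes, and Mafk, higher as were 2.26%.

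The fitted value was lower in deficient ILC3s for 20 of the 30 tested members (66.7%) and for 49.1% of all tested genes. The median fitted log2 fold was -0.20 for the members and 0.02 for all genes. Where low genes were kept, the median of all genes was lower and the gap in medians was not seen. Medians were -0.18 for members and -0.19 for all 19290 genes with no filter, and -0.21 and -0.26 (16714 genes) in DESeq2. A smaller gap in the share with a lower fitted value remained, at 61.1% against 56.0% and 64.7% against 57.9%. With each library left out in turn, the members' median ran from -0.30 to -0.09, and it moved by over 1.5 times without replicate 1 (-0.09), 2 (-0.12), 3 (-0.11) or 8 (-0.10). The count of 3 with an unadjusted p under 0.05 became 1 of 31 without replicate 1, 5 of 30 without replicate 2 and 0 of 30 without replicate 8. Over all genes it was 507 of 9528, 509 of 9469 and 400 of 9327 in these fits. Without scaling factors it was 0 of 30 members and 377 of 8878 genes. In DESeq2 it was 6 of 34 members, Dusp4 among them, and 1247 of 16714 genes. The count of 3 without overlap became 5 without replicate 2, 4 or 7 and 1 without scaling factors. Separation is easier with fewer libraries, and the share over all genes was not counted in those fits, so the rise is not a result about the members.

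**Figure D2:**
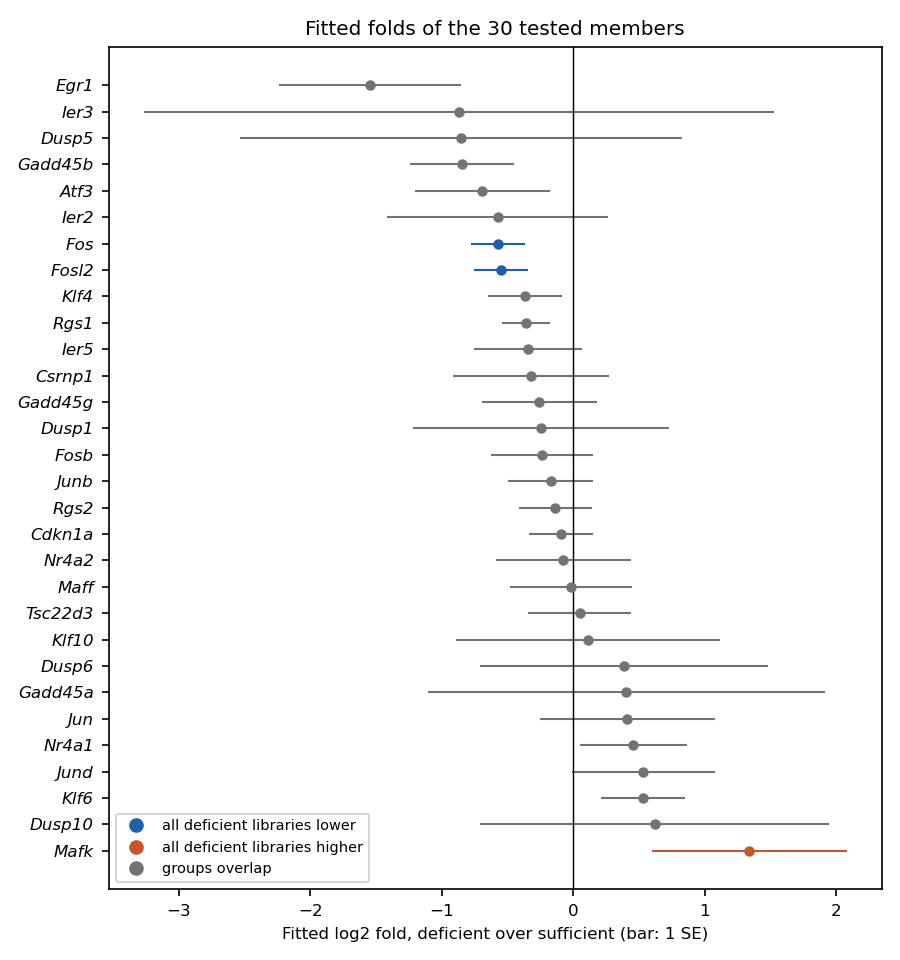
Fitted log2 fold (deficient over sufficient) of the 30 tested members with bars of 1 SE, coloured by whether the groups overlap. Points for 20 members lie left of 0, and Egr1 and Mafk are the members with a fold beyond 1 log2 unit in either direction.

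Precision differed widely between members. Standard errors of the fitted log2 folds ran from 0.18 for Rgs1 to 2.40 for Ier3, with a median of 0.49, and 15 of 30 exceeded 0.5. Among the 13 members with a mean of at least 100 CPM, the median coefficient of variation within a genotype was 25.5%, against 31.2% for all 1810 genes at that level. Between 10 and 100 CPM it was 47.3% for 15 members and 71.7% for 4920 genes, and below 10 CPM it was 141% for 2 members and 115% for 2148 genes.

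Among the FOS proteins, which join AP-1 only as partners of JUN, Fos and Fosl2 were lower in every deficient library. Fos (chromosome 12, 85473890 to 85477274) had 530, 485, 412 and 495 CPM in sufficient and 311, 305, 407 and 271 CPM in deficient ILC3s. The groups were separated by a narrow gap, from 407 CPM in replicate 7 to 412 CPM in replicate 3. Means were 481 ± 49.7 and 323 ± 58.6 CPM (SD, n = 4 each), a fitted fold of 0.673. The log2 fold was -0.57 (SE 0.21) with an unadjusted p of 0.0203 in edgeR's quasi-likelihood test. Over 17 alternative analyses it ran from -0.74 to -0.47, and the unadjusted p was under 0.05 in 13 of them.

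Fosl2, which encodes FRA2 (chromosome 5, 32136472 to 32157840), was the most abundant FOS gene in CPM, at 1300, 913, 745 and 1056 in sufficient and 693, 647, 743 and 661 in deficient ILC3s. Here too replicates 3 and 7 lay next to each other, at 745 and 743 CPM, and the sufficient libraries spread more. Means were 1004 ± 235 and 686 ± 42.4 CPM, a fitted fold of 0.683 and a log2 fold of -0.55 (SE 0.21). The unadjusted p was 0.0231, it was under 0.05 in 12 of the 17 alternatives, and the log2 fold ran from -0.65 to -0.37 over them. Without scaling factors the unadjusted p was 0.0611 for Fos and 0.0658 for Fosl2, and the groups of both genes overlapped.

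Fosb, a close paralogue of Fos, had 347 ± 89.4 and 294 ± 157 CPM, with its highest value of 498 CPM in deficient replicate 6 and its lowest of 125 CPM in deficient replicate 8. Fosl1, which encodes FRA1, had 0 counts in all 8 libraries. The summed FOS level was 1448 to 2278 CPM in sufficient and 1057 to 1468 CPM in deficient libraries, so that the sums overlapped where Fos and Fosl2 did not.

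JUN proteins are the other AP-1 subunits, and none of the 3 genes separated the genotypes. Junb was the most abundant in CPM, at 669, 435, 493 and 438 in sufficient and 328, 345, 793 and 343 in deficient ILC3s. The 3 other deficient libraries lay below all sufficient ones, while replicate 7 lay above them all. The log2 fold of Junb was -0.17 (SE 0.32), and without replicate 7 it was -0.59 with an unadjusted p of 0.0379 and an adjusted p of 1.00 in edgeR. Jun had 68.3, 43.9, 9.46 and 38.9 CPM in sufficient and 35.9, 51.9, 68.4 and 57.2 CPM in deficient libraries, which overlapped, with a log2 fold of 0.41 (SE 0.67). Jund had 48.3, 41.6, 33.1 and 29.5 CPM against 69.7, 46.0, 71.1 and 33.9 CPM, also overlapping, with a log2 fold of 0.53 (SE 0.55). The unadjusted p of Junb was under 0.05 in 1 of the 17 alternatives, that without replicate 7. Junb thus had a lower and Jun and Jund a higher fitted value, none beyond the spread between libraries.

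**Figure D3:**
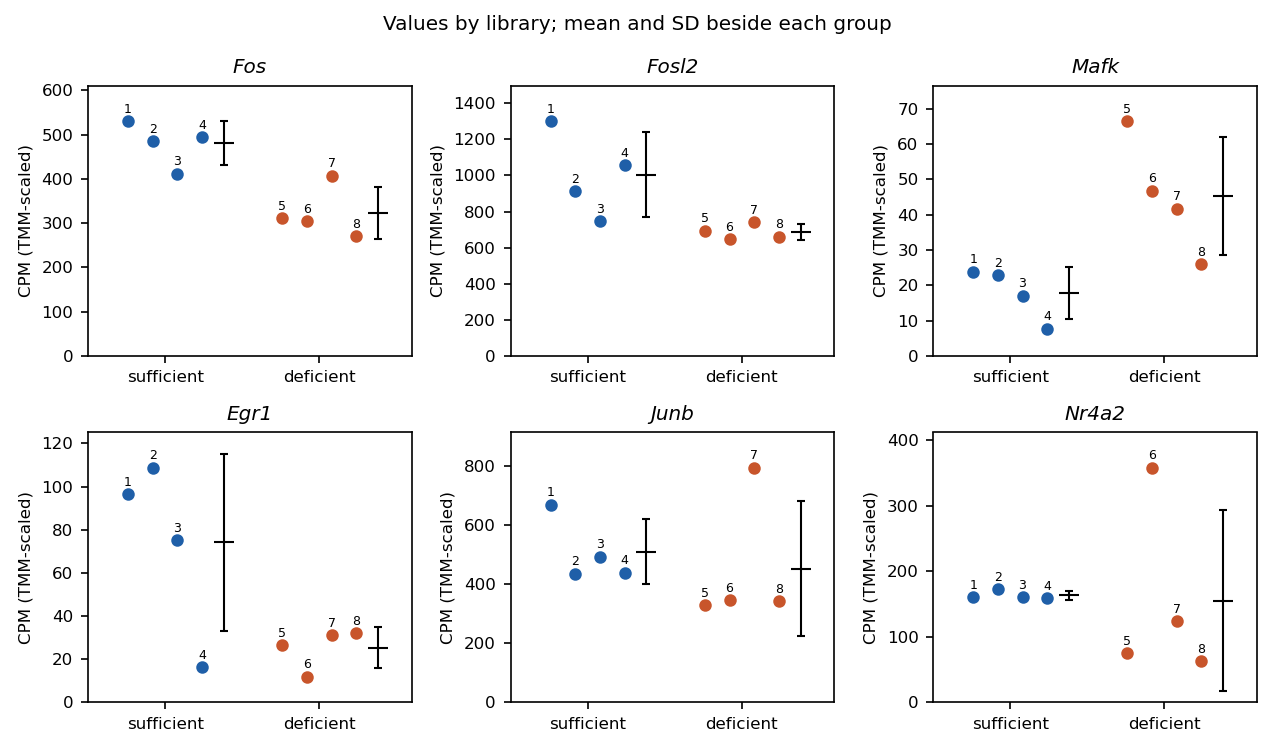
CPM per library of Fos, Fosl2, Mafk, Egr1, Junb and Nr4a2, numbered by replicate, with the mean and SD of each group (linear axes from 0). The deficient libraries lie below the sufficient ones for Fos and Fosl2 and above them for Mafk, while single libraries stand apart for Egr1 (replicate 4), Junb (replicate 7) and Nr4a2 (replicate 6).

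ATF3 and the small MAF proteins are bZIP factors that can pair with other bZIP proteins, and small MAFs lack an activation domain of their own. Mafk (chromosome 5, 139791536 to 139802653) was the member with higher values in every deficient library, at 66.4, 46.8, 41.7 and 26.0 CPM against 23.8, 22.9, 17.0 and 7.71 CPM in the sufficient ones. The groups were closest at 23.8 CPM in replicate 1 and 26.0 CPM in replicate 8. Means were 17.9 ± 7.41 CPM (sufficient) and 45.2 ± 16.7 CPM (deficient), a fitted fold of 2.53. The log2 fold was 1.34 (SE 0.74) with an unadjusted p of 0.101, so edgeR's test did not call it, and over the alternatives it ran from 1.03 to 1.53. DESeq2 gave Mafk an adjusted p of 0.177.

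Maff, the paralogue of Mafk, showed no such separation, with 101, 32.3, 106 and 70.5 CPM in sufficient and 62.4, 96.7, 85.4 and 60.9 CPM in deficient libraries. Atf3, a stress-induced factor, had 54.1, 306, 112 and 119 CPM against 57.6, 120, 109 and 80.4 CPM. Its groups overlapped, and replicate 2 held the highest value. The log2 fold of Atf3 was -0.69 (SE 0.51), and -0.06 without replicate 2.

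EGR proteins are zinc finger factors that bind GC-rich sites, and Egr1 was the one EGR gene with appreciable counts. Egr1 had 96.5, 109, 75.1 and 16.4 CPM in sufficient and 26.5, 12.0, 31.1 and 32.2 CPM in deficient ILC3s. Replicates 1 to 3 lay above all deficient libraries, while sufficient replicate 4 lay within their range. Means were 74.2 ± 41.0 and 25.4 ± 9.32 CPM, a fitted fold of 0.343 and a log2 fold of -1.54 (SE 0.69). The unadjusted p was 0.0493 in edgeR, it was under 0.05 in 4 of the 17 alternatives, and it was 0.00969 without replicate 4 (adjusted p 0.75). Without any 1 of the 7 other libraries it was above 0.05, from 0.0658 to 0.133. Egr2 had 0, 0.0410, 0.321 and 0 CPM against 0.0848, 0, 0 and 0 CPM, values that 10 and 3 counts in all gave. Egr3 had 2 counts, both in replicate 7.

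NR4A proteins are orphan nuclear receptors that antigen receptor signals induce in T cells. Nr4a2, which encodes NURR1, had 161, 173, 161 and 159 CPM in sufficient and 75.5, 358, 124 and 62.7 CPM in deficient libraries. The sufficient libraries lay close together, whereas 3 deficient libraries lay below them all and replicate 6 above them all. Means were 163 ± 6.32 and 155 ± 138 CPM. Without replicate 6, the log2 fold of Nr4a2 went from -0.07 to -0.91, with an unadjusted p of 0.0204 and an adjusted p of 0.648 in edgeR. Its unadjusted p was under 0.05 in 2 of the 17 alternatives, both without replicate 6. Nr4a1, which encodes NUR77, had 59.5, 103, 42.3 and 77.7 CPM against 119, 91.1, 107 and 70.1 CPM, with overlapping groups and a log2 fold of 0.46 (SE 0.41). Nr4a3 had 0 counts in all libraries.

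Of the Krüppel-like factors, Klf6 and Klf4 were the most abundant in CPM and had fitted values of opposite sign. Klf6 had 199, 312, 118 and 176 CPM in sufficient and 378, 287, 237 and 264 CPM in deficient libraries, a log2 fold of 0.53 (SE 0.32). Its deficient libraries all exceeded the sufficient ones except for sufficient replicate 2, and without that library the unadjusted p went from 0.125 to 0.0246 (adjusted p 0.739, edgeR). That was the only case under 0.05, 1 of the 17 alternatives. Klf4 had 235, 208, 207 and 229 CPM against 158, 211, 208 and 106 CPM, a log2 fold of -0.37 (SE 0.28). Its sufficient values lay close together, and only replicates 5 and 8 lay below them. Klf10, known as a target of TGF-β, had 16.7 ± 7.14 and 18.0 ± 9.88 CPM.

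Klf2, which promotes lymphocyte exit from tissues, was nearly absent from 5 libraries and present in 3. It had 0.233, 18.4, 12.8 and 0.156 CPM in sufficient and 0, 0, 0.0310 and 10.01 CPM in deficient ILC3s, and it did not pass the filter. High libraries occurred in both genotypes.

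Among the DUSP phosphatases, Dusp1, which acts on p38, JNK and ERK, varied more within than between genotypes. It had 164, 148, 24.1 and 5.88 CPM in sufficient and 130, 46.5, 12.8 and 99.1 CPM in deficient libraries, a 27.9-fold range. Dusp6, selective for ERK, had 39.8, 8.56, 20.7 and 12.4 CPM against 52.6, 43.5, 3.97 and 6.29 CPM, and the groups overlapped. Dusp5, which acts on ERK in the nucleus, had 5.54, 1.11, 3.46 and 9.77 CPM against 0.848, 0, 1.64 and 8.49 CPM. Dusp10, selective for JNK and p38, had 11.7 ± 12.2 and 18.0 ± 11.5 CPM. The log2 folds of these 4 had standard errors of 0.97 to 1.68, larger than the folds themselves.

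Dusp4 had counts in sufficient libraries alone, with 0.0388, 2.25, 0.892 and 0 CPM there and 0 CPM in all 4 deficient ones. Summed over each group, these were 81 counts against 0, at least 32.9-fold fewer with the floor of 3 counts taken over the group. The bound covers counting error only and leaves out the spread between mice. Of the 81 counts, 55 came from replicate 2 and 25 from replicate 3, and without replicate 2 the bound was 13.8-fold. Dusp4 did not pass edgeR's filter, and DESeq2 gave it an adjusted p of 0.152. Dusp2, found chiefly in activated lymphocytes, had 2 and 5 counts.

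RGS proteins speed GTP hydrolysis by Gα subunits and so damp chemokine receptor signals. Rgs1 (chromosome 1, 144244669 to 144249104) had 4762, 4299, 6010 and 6167 CPM in sufficient and 4596, 4093, 3547 and 4325 CPM in deficient ILC3s. Replicates 1, 3 and 4 stood above all deficient libraries, and replicate 2 lay below deficient replicates 5 and 8. The log2 fold of -0.36 had the smallest standard error of all members, 0.18, and an unadjusted p of 0.0771. Without replicate 2, the 3 other sufficient libraries lay above all deficient ones, at an unadjusted p of 0.0477 and an adjusted p of 0.918 in edgeR. The unadjusted p of Rgs1 was under 0.05 in 3 of the 17 alternatives. Rgs2 had 1059, 1525, 1845 and 1638 CPM against 2091, 1072, 968 and 1388 CPM, with overlapping groups and a log2 fold of -0.14 (SE 0.28).

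The IER genes are small early response genes, Csrnp1 encodes a nuclear protein induced by AXIN1, and Tsc22d3 encodes the glucocorticoid-induced protein GILZ. Ier5 had 269, 192, 145 and 225 CPM in sufficient and 88.8, 180, 292 and 94.7 CPM in deficient libraries. Csrnp1 had 178, 74.4, 60.5 and 99.4 CPM against 20.7, 144, 105 and 59.7 CPM. In both genes the groups overlapped, with replicates 5 and 8 as the lowest libraries. Ier2 had 74.4 ± 71.2 and 49.9 ± 43.0 CPM. Ier3 had 8.82 ± 17.5 and 4.83 ± 6.78 CPM, a mean that 35.1 CPM in replicate 2 made up in the sufficient group. Tsc22d3 had nearly equal means, 71.6 ± 18.6 and 74.1 ± 8.19 CPM, and a log2 fold of 0.05 (SE 0.39).

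The last class holds the transcription factor MYC, the stress sensors GADD45 and the cell cycle inhibitor p21, encoded by Cdkn1a. Gadd45b (chromosome 10, 80930091 to 80932204) had 117, 121, 187 and 96.7 CPM in sufficient and 46.4, 69.2, 112 and 62.3 CPM in deficient libraries. Replicate 7 was the 1 deficient library inside the sufficient range. Means were 130 ± 39.0 and 72.5 ± 28.1 CPM, a fitted fold of 0.557 and a log2 fold of -0.84 (SE 0.39) with an unadjusted p of 0.0568 in edgeR. That p was 0.0229 without replicate 7 and 0.0488 without replicate 4, with adjusted p of 0.958 and 0.964. It was under 0.05 in 4 of the 17 alternatives, these 2 included.

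Cdkn1a had 319, 332, 376 and 296 CPM in sufficient and 428, 223, 308 and 281 CPM in deficient libraries, with the largest and the smallest values both in deficient mice and a log2 fold of -0.09 (SE 0.24). Gadd45g had 88.3 ± 36.7 and 73.9 ± 16.3 CPM, and Gadd45a 11.8 ± 10.9 and 15.7 ± 12.1 CPM. Myc stayed at or below 3.31 CPM in 7 libraries and reached 23.7 CPM in deficient replicate 6.

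The members did not vary as a block from library to library. Of the 30 tested members, 21 lay above their own 8-library median in replicate 1, the highest number, and 9 did in replicate 8, the lowest. Replicate 5 held the highest value of 7 members and the lowest of 4, while replicate 8 held the highest of 0. Summed over all 38 members, sufficient libraries had 11156, 10552, 11886 and 11976 CPM and deficient libraries 10413, 9224, 8927 and 8757 CPM, and the groups did not overlap. Rgs1 and Rgs2 made up 4516 to 7855 CPM of these sums. Without them the groups overlapped, at 5335, 4729, 4030 and 4172 CPM against 3726, 4059, 4411 and 3044 CPM. The JUN sum was highest in replicates 7 and 1, at 933 and 785 CPM against 434 to 536 CPM elsewhere. The NR4A sum was highest in replicate 6, at 449 CPM, and the DUSP sum ranged from 26.8 to 214 CPM with high and low libraries in both genotypes.

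**Figure D4:**
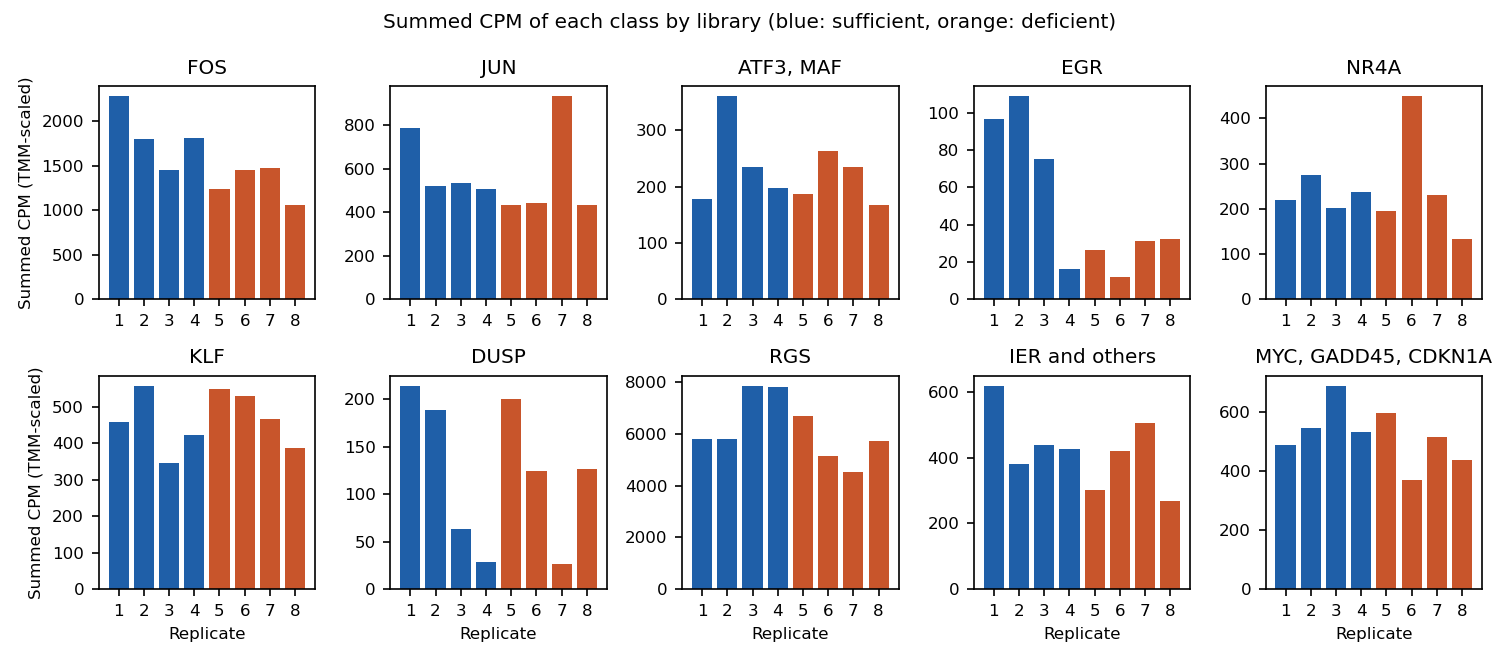
Summed CPM of the members of each role class in every library (bars from 0; blue sufficient, orange deficient; 1 bar per mouse). The JUN sum peaks in replicates 1 and 7, the NR4A sum in replicate 6, and the DUSP sum has low bars in both genotypes.

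Markers of other cell types differed between the same libraries. Stromal and endothelial markers (2 of 8 tested, Cdh5 at 0 throughout) summed to 779 CPM in replicate 1 and 421 CPM in replicate 7. Elsewhere they summed to 13.9 to 114 CPM. Dcn gave 680 CPM of the first sum, while Col3a1 gave 242 CPM and Dcn 132 CPM of the second. Replicates 1 and 7 were the 2 libraries with the highest Junb and Ier5. Epithelial markers (2 of 9 tested) summed to 1351 CPM in replicate 2, the library with the highest Atf3 and Ier3, and to at most 28.4 CPM elsewhere. Macrophage and neutrophil markers (5 of 12 tested) summed to 370 CPM in replicate 5 and 799 CPM in replicate 7. The sum was 12.8 CPM for replicate 6, 21.0 CPM for replicate 8 and at most 89.0 CPM among sufficient libraries. Most of both high sums came from 2 genes. S100a8 gave 236 CPM of the first sum and 313 CPM of the second, while S100a9 gave 93.2 CPM of the first and 355 CPM of the second. For replicate 5, Lyz2 stood at 0.113 CPM and C1qc at 0.0283 CPM, and Csf1r, Itgam, Csf3r, Cd68, C1qa and C1qb were at 0. Cd14 and Adgre1 were present in replicate 5, at 38.7 and 2.63 CPM. Cd14 also had 49.2 CPM in replicate 7 and 45.3 CPM in sufficient replicate 4. Replicate 7 had counts of all these genes. Without replicates 5 and 7, left out after these values were seen, Junb, Gadd45b and Cdkn1a joined Fos, Fosl2 and Mafk as members without overlap. Leaving out libraries under the same scaling cannot make separated groups overlap, and it makes separation easier. The part of replicates 5 and 7 in the separation was therefore not tested by it.

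ILC2 markers (4 of 6 tested) summed to 46.7 to 250 CPM in sufficient and 279 to 407 CPM in deficient libraries. Nearly all of that sum was Areg, which encodes the growth factor amphiregulin, at 145 ± 74.7 and 331 ± 71.2 CPM without overlap. The 3 other tested genes, Il5, Klrg1 and Hpgds, had lower means in deficient ILC3s, and Il13 and Il1rl1 stayed at or below 1.5 CPM. NK and ILC1 markers (4 of 8 tested, Prf1 at 0 throughout) summed to 49.3 to 246 and 188 to 628 CPM. In the deficient libraries and sufficient replicate 4, most of this was Ncr1, which encodes NKp46 and is also an ILC3 gene. Ncr1 had 75.9 ± 84.8 and 252 ± 139 CPM by genotype. It gave 40.7 of 107 CPM in replicate 2 and 66.7 of 136 CPM in replicate 3. In replicate 1 it had 0.0388 CPM, and Klrb1c gave 36.5 of 49.3 CPM. Of the 3 tested genes other than Ncr1, Ccl5 also had a higher deficient mean, whereas Klrb1c and Gzmb had lower ones. Among the untested genes, Eomes stayed near 0. Gzma reached 58.8 CPM and Tbx21 11.2 CPM in deficient replicate 5, against at most 0.226 and 3.61 CPM elsewhere. T cell markers (6 of 9 tested, Cd8a at 0 throughout) summed to 116 to 306 and to 115 to 254 CPM by genotype. B and plasma cell markers (3 of 7 tested) summed to 8.87 to 135 and 21.1 to 94.0 CPM. Igkc gave 113 CPM of the highest of these sums, in replicate 1. Of mast cell genes, Cpa3 had 65.6 CPM in replicate 6 and at most 3.15 CPM elsewhere. Mcpt1, Mcpt2, Tpsb2 and Fcer1a stayed at or below 0.0410 CPM. Dendritic markers (5 of 9 tested, Cd209a at 0 throughout, Zbtb46 included) summed to 564 to 789 and 530 to 1090 CPM, mostly Ccr7 at 361 to 913 CPM. Among them Irf8 did not overlap, at 0.0778 to 5.70 CPM in sufficient and 7.56 to 25.4 CPM in deficient libraries. The sorting gate excluded cells with surface CD3, CD5, NK1.1, CD11b, CD11c and B220. The part of these cells in the members' values was not tested.

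Genes upstream of the members, and other related genes, were counted in 12 lists chosen by pathway or family, of which edgeR called 0 genes past the threshold. Over the 12 lists, 106 of 128 genes were tested, 56 with lower and 50 with higher fitted values. The list of other early response genes, described below, gave 18 of the 56 and 1 of the 50. In all, 4 genes had an unadjusted p under 0.05 in edgeR (3.77%, against 4.10% of all tested genes). Of the ERK cascade, 5 of 12 tested genes were lower and 7 higher, and Nras, a RAS protein, had 69.7 ± 13.7 and 120 ± 48.5 CPM. The MEK2 kinase gene Map2k2 had 22.7 ± 28.0 and 8.62 ± 1.58 CPM. Of the JNK and p38 cascades, 4 of 9 were lower and 5 higher, and the kinase gene Mapkapk2 had 129 ± 24.7 and 84.4 ± 21.1 CPM. Mapk14, which encodes p38α, had 155 ± 34.4 and 246 ± 137 CPM. Of the calcineurin and NFAT genes, which calcium signals activate, 1 of 6 was lower and 5 were higher. Nfatc3, an NFAT factor, had 75.6 ± 30.6 and 162 ± 64.7 CPM, a log2 fold of 1.10 (SE 0.44) with an unadjusted p of 0.0312. Ppp3cb, a catalytic subunit gene of calcineurin, had 43.3 ± 27.8 and 70.8 ± 35.0 CPM.

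Among the SRF and CREB factors, which start immediate early transcription, fitted values were lower for 8 of 11 tested genes and higher for 3, and the median log2 fold was -0.74. Crem, a CREB family gene that also yields the repressor ICER, had 6961, 7196, 8945 and 8741 CPM in sufficient and 4579, 3171, 4976 and 5532 CPM in deficient libraries. Every deficient value was under the lowest sufficient one. The log2 fold of Crem was -0.80 (SE 0.21) with an unadjusted p of 0.00301 and an adjusted p of 0.515 in edgeR's quasi-likelihood test. Elk1, a partner of serum response factor, had 5.63 ± 3.75 and 0.892 ± 1.36 CPM.

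A further list of 20 early response genes outside the 38 held 19 tested genes, of which 18 had a lower fitted value and 1, the interferon response factor gene Irf1, a higher one. Their median log2 fold was -0.32 against 0.02 for all tested genes, and 0 had an unadjusted p under 0.05. Some genes of the list were already known to be lower from earlier results of these data, so the count is a description only. Zfp36, whose protein degrades AU-rich mRNAs, had 99.7, 30.1, 25.7 and 40.9 CPM in sufficient and 5.79, 0.940, 23.1 and 14.3 CPM in deficient libraries, which did not overlap. Its log2 fold was -2.16 (SE 1.04) with an unadjusted p of 0.0653. Cd69, a membrane protein that retains lymphocytes in tissue, had 254, 534, 721 and 522 CPM against 476, 165, 252 and 239 CPM, and replicates 1 and 5 lay among the other genotype. Over the alternatives 14 to 18 of the 19 were lower, with 14 without replicate 2, and the median ran from -0.44 to -0.19, the last without replicate 8.

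**Figure D5:**
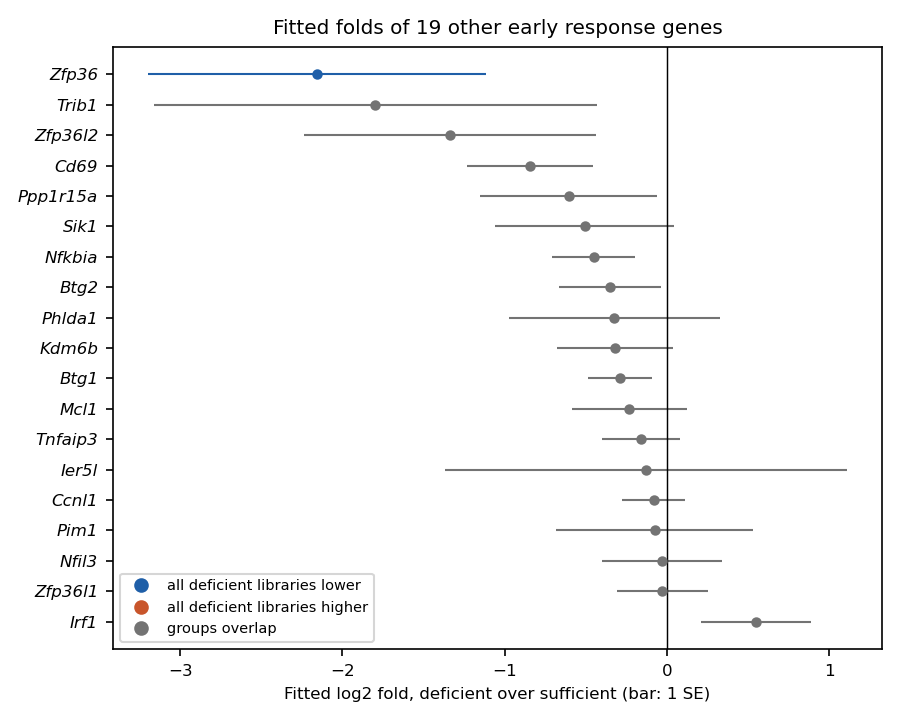
Fitted log2 fold (deficient over sufficient) of 19 tested early response genes outside the 38 members, with bars of 1 SE. Points for 18 lie left of 0, Irf1 lies right of it, and Zfp36 is the gene whose groups do not overlap.

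The other lists were mixed. AP-1 partners, bZIP genes beyond FOS and JUN, had 3 lower and 7 higher of 10 tested, with Batf at 31.5 ± 24.9 and 57.2 ± 27.1 CPM and the oxidative stress factor gene Nfe2l2 at 374 ± 104 and 256 ± 108 CPM. Of 9 tested p53 targets, 1 was lower and 8 were higher. The lower one was Trp53inp1, a stress-induced p53 cofactor, at 1432 ± 172 and 1002 ± 195 CPM with a log2 fold of -0.52 and an unadjusted p of 0.0274. Bbc3, which encodes the cell death protein PUMA, had 0.233 ± 0.420 and 2.06 ± 2.54 CPM. Heat shock genes had 7 lower and 3 higher of 10, with the chaperone gene Dnaja1 at 464 ± 22.8 and 304 ± 86.8 CPM, non-overlapping, and an unadjusted p of 0.0259. Dnajb1, an HSP40 gene, had 87.7 ± 32.1 and 40.8 ± 28.5 CPM. Glucocorticoid targets were even at 3 and 3, with the clock gene Per1 at 88.6 ± 46.4 and 54.4 ± 27.2 CPM and the kinase gene Sgk1 at 13.6 ± 16.9 and 27.6 ± 15.0 CPM. Beyond the members, the DUSP family had 5 lower and 2 higher of 7 tested, the KLF family 1 and 3 of 4, and the RGS family 0 and 3 of 3, with Rgs19 at 2.12 ± 2.48 and 23.6 ± 20.9 CPM and Rgs18 at 22.2 ± 19.1 and 36.5 ± 34.5 CPM. Dusp11 had 170 ± 71.7 and 99.7 ± 33.1 CPM, Dusp7 2.03 ± 1.94 and 0.310 ± 0.620 CPM, Klf7 27.3 ± 28.8 and 71.1 ± 83.5 CPM and Klf13 46.4 ± 11.4 and 67.8 ± 23.2 CPM.

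Members that overlap another annotated gene are less certain, because no source used here says whether the counting used strand. These are Fosl1 with Ccdc85b, Egr2 with Gm32255, Nr4a2 with LOC105244150, Klf10 with Gm35248, Dusp6 with Gm34921, Csrnp1 with Gm33800 and Gadd45a with E230016M11Rik. Fos, Fosl2, Mafk and Egr1 overlap none.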

How the data were processed

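Groups were taken from the sample titles. Libraries were made from sorted cells with a SMARTer low-input kit (V4), per the labels' protocols. Alignment used STAR 2.3.0 after CASAVA 1.8.2 on build mm10, per the submitters' processing notes. No source used here gives the tool that counted reads, the annotation, whether strand was used or how multiply mapped reads were treated. The authors deposited whole-number read counts per Entrez gene, with no normalization. Of 27179 rows, 25275 matched a symbol in the RefSeq table of GRCm38.p6, and the other 1904 held 0.303% of counts.

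From these counts, CPM used TMM-scaled library totals. Genotypes were compared in edgeR 4.0.16 (R 4.3.3) by its quasi-likelihood test after filterByExpr, with Benjamini-Hochberg adjustment over 8878 genes and a threshold of 0.05. The script was tested on simulated data. Standard errors were derived from the F statistic. Exon lengths are unions of GENCODE M21 exons, available for 96.4% of tested genes. Depth was 25328231 to 33760743 counts per library.

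The members and gene lists were chosen with earlier results of these data known. All 38 members are named. Values in every library are given for the 2 most abundant members of each class, the one with the smallest p and those whose groups do not overlap. Of each other list, the 2 genes with the smallest p are named. Each mouse gave 1 library, so differences between mice and between preparations cannot be told apart. Alternatives were RLE factors, no scaling factors, robust dispersions, no filter, at least 5 CPM in 4 libraries, DESeq2 1.42.0, limma-voom (limma 3.58.1) and each library left out. Leaving out replicates 1 and 6, or 5 and 7, was added after the data were seen. An ILC3 marker gene, and sums that include it, are not reported here.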

Additional observations from a re-analysis of the deposited data

Results flagged for a closer look

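In 10 of the 87 genotype groups of 4 libraries examined, 1 library lay far from the other 3. A rate of about 1 in 20, or 4.35 of 87, would apply to independent groups of normally distributed values. CPM of genes with few counts need not be distributed in that way, and the groups included class sums made of the same members. Whether 10 exceeds chance was therefore not tested. Replicate 7 had 793 CPM of Junb against 328 to 345 CPM in the other deficient libraries, which carried the summed JUN level to 933 CPM against 434 to 443 CPM. In the sufficient group, replicate 1 had a JUN sum of 785 CPM against 507 to 536 CPM. Replicate 7 also had the lowest Tsc22d3 of the deficient group, 61.9 CPM against 77.3 to 79.8 CPM.

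Replicate 2 had 35.1 CPM of Ier3 against at most 0.117 CPM in the other sufficient libraries. It also had 173 CPM of Nr4a2 against 159 to 161 CPM, a small step in a tight group. Klf2 reached 10.01 CPM in deficient replicate 8 against at most 0.0310 CPM. Myc reached 23.7 CPM in deficient replicate 6 against at most 0.155 CPM, and 3.31 CPM in sufficient replicate 4 against 0.123 to 0.194 CPM. Egr2 reached 0.321 CPM in sufficient replicate 3 against at most 0.0410 CPM.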

How the results depend on the processing

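Under all 17 alternatives 0 members passed the adjusted threshold. Members with an unadjusted p under 0.05 numbered 3 of 30 in the reported analysis, 0 of 30 without scaling factors and 6 of 34 in DESeq2. They numbered 1 of 31 without replicates 1 and 6, 1 of 33 without replicates 5 and 7, and 0 to 5 with 1 library left out. Over all genes the counts were 364 of 8878 in the reported analysis, 377 of 8878 without scaling factors and 1247 of 16714 in DESeq2. They were 536 of 9257 without replicates 1 and 6 and 430 of 10066 without replicates 5 and 7. Members whose groups did not overlap numbered 3, then 1 without scaling factors, 5 without replicates 1 and 6, 6 without replicates 5 and 7, and 3 to 5 with 1 library left out. Leaving out libraries under the same scaling can only keep or raise this count. The share over all genes was not counted in those fits, so the higher counts are not a result about the members. Genes past the threshold numbered 0 in the reported analysis, 2 with no filter, 378 in DESeq2 (3.52% of 10730 genes with an adjusted p) and 0 to 2 with 1 library left out, the 2 arising without replicate 6. The cause of these differences was not tested. Without scaling factors the median log2 fold of all genes was 0.11 in place of 0.02, and 18 of 30 members were lower. Over 508 pairs of a tested member and an alternative the sign was kept in 470 and reversed in 38, which fell on 14 members, none of them Fos, Fosl2, Egr1 or Mafk. Reversed log2 folds were 0.0669 for Maff and 0.0105 for Cdkn1a without scaling factors, 0.00175 for Maff with no filter, and in limma-voom 0.0537 for Maff, -0.0901 for Klf10, 0.59 for Dusp1, -0.40 for Dusp6 and 2.53 for Ier3. Without replicates 1 and 6 they were 0.10 for Junb, 8.69e-05 for Maff, -0.0782 for Klf10, 0.47 for Dusp1, -0.17 for Dusp10 and 0.0241 for Cdkn1a. Without replicates 5 and 7 they were 0.0258 for Maff, 0.36 for Nr4a2 and -0.21 for Gadd45a. With 1 library left out, folds ran from -0.63 to 0.0154 for Fosb, -0.27 to 0.18 for Maff, -0.91 to 0.19 for Nr4a2, -0.30 to 0.34 for Klf10, -0.69 to 0.28 for Dusp1, -0.20 to 0.94 for Dusp6, -1.38 to 0.26 for Ier2, -2.51 to 6.45 for Ier3, -0.75 to 0.0733 for Csrnp1, -0.0872 to 0.17 for Tsc22d3, -0.11 to 0.90 for Gadd45a and -0.30 to 0.0251 for Cdkn1a. No paired analysis was possible because the replicate numbers run from 1 to 8 and the groups share none.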
